A study of Mus musculus with 24 samples.

Results

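Gene expression of the NF-κB subunits, of the feedback genes of the pathway and of *Ptgs2* was read from RNA sequencing of X-irradiated astrocytes. The 10 genes were *Nfkb1*, *Nfkb2*, *Rela* and *Relb* (subunits), *Nfkbia*, *Nfkbie* and *Nfkbiz* (proteins of the IκB family), *Tnfaip3* and *Birc3* (regulators of the signal) and *Ptgs2* (an inflammatory target). They were chosen by gene symbol, with earlier results of these data known, from count tables that list 49315 genes, and all 10 passed the filter on low counts in every comparison. Primary astrocytes were prepared from the cortices of C57BL/6J wild type mouse embryos (day E18.5), where the embryos of 1 pregnant mouse were pooled, and were cultured in medium with serum before use. The cells were mock-irradiated (0 Gy, handled alike with the X-ray source switched off) or exposed to 0.1 Gy or 2 Gy X-rays, and RNA was taken 6 h or 24 h later. Each of the 6 groups held 4 libraries, numbered 1 to 4. None of the groups carried a genetic change or received another agent. The comparisons ask whether X-rays altered the transcripts of this pathway at each time and whether the transcripts differed between the times.

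In the coordinates of mm10 (GRCm38) given by the files, the subunit genes were *Nfkb1* (ENSMUSG00000028163) at chr3:135584655-135691547 (minus strand), *Nfkb2* (ENSMUSG00000025225) at chr19:46304737-46312090 (plus strand), *Rela* (ENSMUSG00000024927) at chr19:5637483-5648130 (plus strand) and *Relb* (ENSMUSG00000002983) at chr7:19606217-19629438 (minus strand). The genes of the IκB family were *Nfkbia* (ENSMUSG00000021025) at chr12:55489411-55492647 (minus strand), *Nfkbie* (ENSMUSG00000023947) at chr17:45555716-45563169 (plus strand) and *Nfkbiz* (ENSMUSG00000035356) at chr16:55811375-55838899 (minus strand). The others were *Tnfaip3* (ENSMUSG00000019850) at chr10:19000910-19015657 (minus strand), *Birc3* (ENSMUSG00000032000) at chr9:7848699-7873186 (minus strand) and *Ptgs2* (ENSMUSG00000032487) at chr1:150100031-150108227 (plus strand).

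NF-κB is a family of dimeric transcription factors. In resting cells the dimers are held in the cytoplasm by IκB proteins, and receptors for TNF, interleukin-1 or microbial products, or a signal that starts from DNA double strand breaks through ATM and NEMO, activate the IκB kinase, which marks IκBα for degradation. *Rela* encodes p65, *Nfkb1* encodes p105 and its product p50, and *Relb* and *Nfkb2* (p100 and p52) form the dimer of the noncanonical branch. Several genes of the pathway are themselves NF-κB targets, among them *Nfkbia*, *Nfkbie*, *Nfkb2*, *Relb*, *Tnfaip3* and *Birc3*, so that their transcripts serve as a readout of the pathway in astrocytes and in other cells. *Ptgs2* encodes cyclooxygenase-2, the inducible enzyme of prostaglandin synthesis, whose gene also responds to other signals.

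The libraries held between 14742855 and 38194800 counts, so that the member with the fewest reads, *Nfkbie*, still had 90 to 567 counts per library and *Ptgs2* had 90 to 9872. Levels are given as CPM, the count per unit of library size after TMM scaling. Markers of the labelled cell type were present, with 11 of 12 astrocyte markers at a mean of at least 1 CPM in every group and their sum between 2462 and 3523 CPM. All 14 microglial markers were at a mean of at least 1 CPM in every group too. The summed microglial markers lay between 2033 and 3549 CPM in the libraries numbered 1, 3 and 4 and between 296 and 357 CPM in the 6 libraries numbered 2, the defining genes *Cx3cr1*, *Csf1r*, *C1qa* and *Tmem119* included. In such bulk samples, fewer cells of a type and less RNA per cell cannot be told apart. Of the 14 neuronal markers 7 or 8 reached that level in a group, and their sum lay between 467 and 796 CPM, with *Stmn2* at 181 to 322, *Map2* at 105 to 425 and *Tubb3* at 35.2 to 123 CPM, while *Rbfox3*, *Snap25*, *Nefl*, *Slc17a7* and *Gad2* were at 0 in at least 1 library. Of the 10 markers of the oligodendrocyte lineage 7 or 8 reached it, with *Olig1* between 151 and 538 CPM in single libraries, and the sum lay between 409.7 and 898 CPM. Of the 14 markers of endothelial cells, pericytes and fibroblasts 8 or 9 reached it, and their sum lay between 3532 and 7853 CPM, most of it *Acta2* of contractile cells at 2929.7 to 7369 CPM. *Pdgfrb* of pericytes was at 45.5 to 78.5 CPM and the collagen gene *Col1a1* at 118 to 879.6 CPM, while *Kdr* of endothelial cells was at 3.72 to 16.7 CPM and *Cldn5* at 0 to 0.070 CPM. The part of these other cells in the results was not tested.

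At 6 h in mock-irradiated cells, the inhibitor *Nfkbia* had the highest level per transcript length, and *Ptgs2* and *Rela* came next. Per length of the gene model, as TPM (transcripts on the same scale after division by length), *Nfkbia* was highest with 170.2 ± 45.7 (SD, n = 4), above *Ptgs2* in 4 of 4 libraries. *Ptgs2* followed with 94.98 ± 55.3 TPM and *Rela* with 92.6 ± 8.16 TPM, and their ranges overlapped. The ranges of *Rela* and of *Nfkb2*, at 55.2 ± 12.6 TPM, were apart, as were those of *Nfkb2* and *Nfkbiz*, at 22.3 ± 11.5 TPM. Below these came *Relb* with 20.7 ± 5.48 TPM, *Nfkb1* with 17.3 ± 4.31 TPM, *Nfkbie* with 11.9 ± 3.89 TPM and *Birc3* with 11.5 ± 4.84 TPM, each neighbour overlapping the next. *Tnfaip3*, which encodes the ubiquitin-editing enzyme A20, was the lowest with 7.65 ± 1.93 TPM.

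The order was another one at 24 h. In mock-irradiated cells at 24 h, *Rela* stood first with 78.9 ± 22.7 TPM, ahead of *Nfkbia* with 68.7 ± 32.7 TPM in 3 of 4 libraries. *Ptgs2* had moved to the fifth place with 13.7 ± 7.59 TPM, next to *Nfkb1* with 14.4 ± 5.17 TPM. After 2 Gy at 24 h, *Ptgs2* was eighth with 8.64 ± 4.57 TPM. *Tnfaip3* was the lowest of the 10 in all 6 groups.

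**Figure D1:**
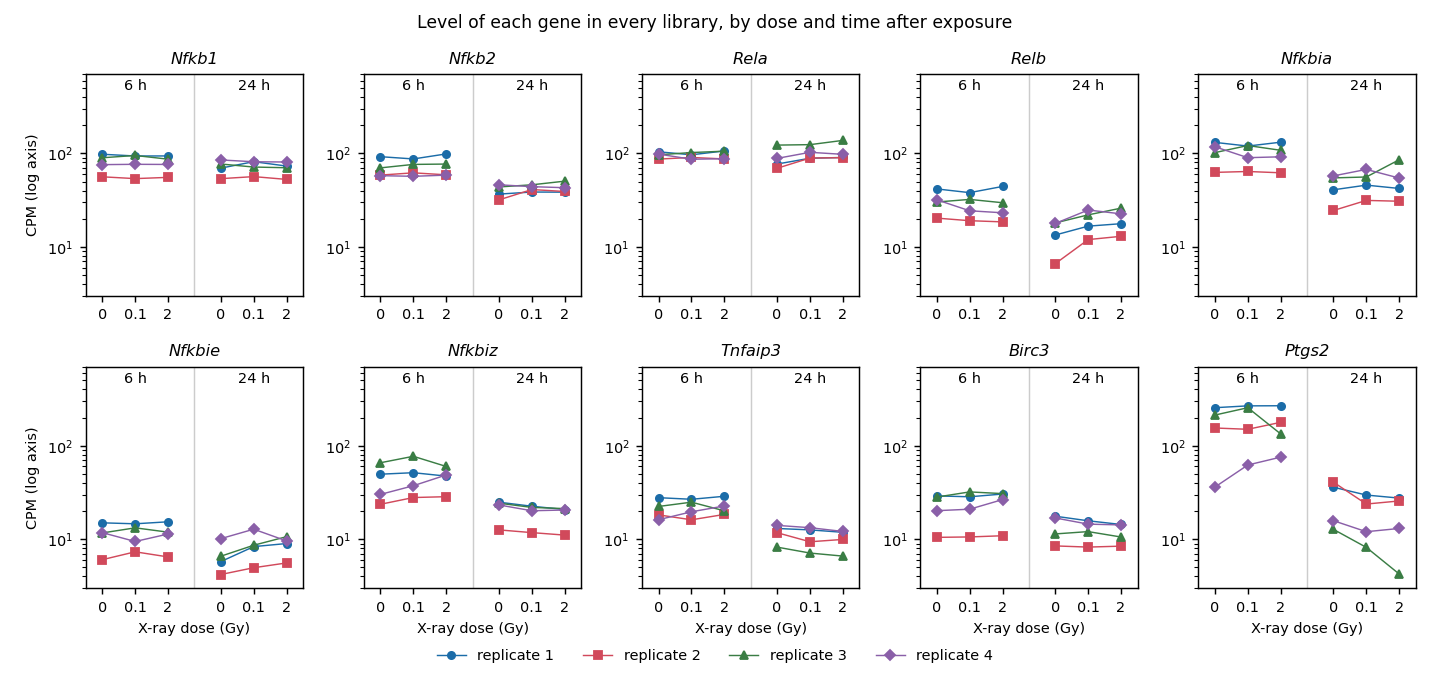
CPM of each gene (log axis) in every library, by X-ray dose and by time after exposure. Lines join the libraries that carry the same number within a time. The lines are mostly flat across dose, stand at different heights for different numbers, and sit lower at 24 h than at 6 h for most genes, by the widest margin for *Ptgs2*.

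Between the times, members of all classes were lower at 24 h than at 6 h, and the widest difference was that of *Ptgs2*. From 6 h to 24 h, 9 or 10 of the 10 genes had a log2 fold change below 0 at each dose. The median log2 fold change of the 10 genes was -0.85 in mock-irradiated cells, -0.82 after 0.1 Gy and -0.85 after 2 Gy, where the median of all genes tested was -0.017, -0.00824 and -0.00217. In mock-irradiated cells 3 of the 10 genes fell (edgeR's quasi-likelihood test, adjusted p under 0.05 over all genes), where 3.46% of all genes were called lower. In cells exposed to 0.1 Gy 5 of the 10 fell, against 5.33% of all genes, and in cells exposed to 2 Gy 4 of the 10 fell, against 3.92%. No member was called higher at 24 h, where 515 of 15887, 743 of 16250 and 484 of 16002 genes were called higher at 0, 0.1 and 2 Gy.

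*Ptgs2* had the largest difference of the 10 genes. In mock-irradiated cells its level in libraries 1 to 4 was 255, 155, 213 and 36.1 CPM at 6 h and 35.99, 40.8, 12.8 and 15.8 CPM at 24 h. It was 6.31-fold lower at 24 h (log2 fold change -2.66 ± 0.59 (SE), edgeR adjusted p = 0.0315). The groups touched, since library 4 at 6 h was lower than library 2 at 24 h, and the exact permutation test of the 4 against 4 log2 values gave p = 0.0571 (two-sided, with 0.0286 the smallest p it allows).

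After 0.1 Gy, *Ptgs2* was at 267, 149.8, 255 and 62.2 CPM at 6 h and at 29.7, 23.8, 8.18 and 12.03 CPM at 24 h, with no overlap, and was 10.1-fold lower at 24 h (edgeR adjusted p = 0.00958). After 2 Gy it was at 267, 178, 134 and 75.5 CPM and at 27.5, 25.7, 4.24 and 13.03 CPM, again with no overlap, and was 9.37-fold lower (edgeR adjusted p = 0.0179). Library 4 was the lowest at 6 h at each dose, while library 3 was the lowest at 24 h. With 1 library left out at a time, the difference stayed past the threshold in 8 of 8 fits at 0.1 Gy, in 5 of 8 at 2 Gy and in 4 of 8 in mock-irradiated cells, with adjusted p between 0.0154 and 0.105 in the last.

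**Figure D2:**
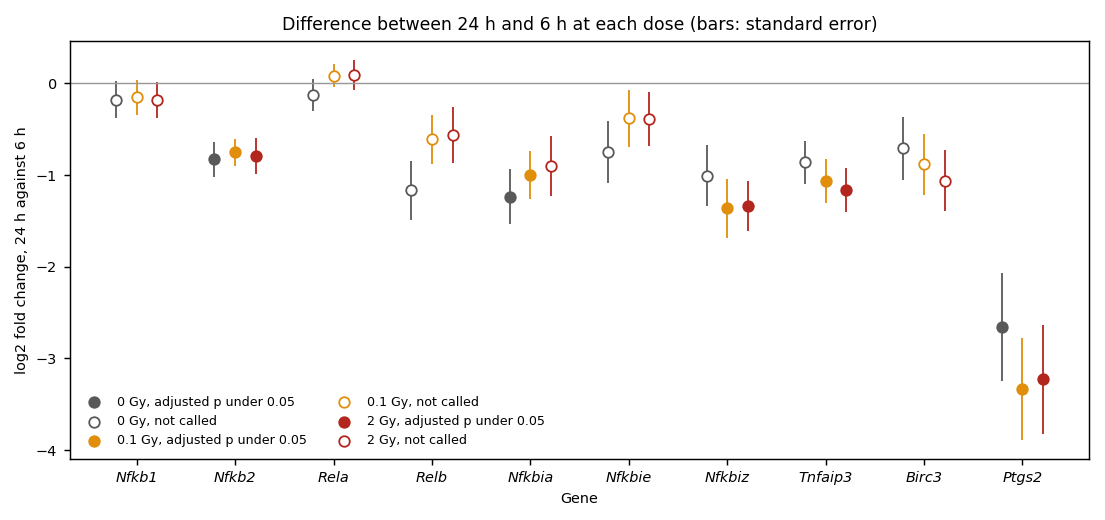
Log2 fold change of each gene between 24 h and 6 h (points, with bars for the standard error of the unpaired edgeR fit) at 0, 0.1 and 2 Gy. Filled points had an adjusted p under 0.05. *Ptgs2* lies between -2.66 and -3.33, *Nfkb2* is filled at all 3 doses, and *Nfkb1* and *Rela* lie near 0.

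Among the subunits, *Nfkb2* passed the test between the times in the unpaired fit, and *Nfkb1* and *Rela* did not. *Nfkb2* in mock-irradiated cells was at 92.2, 58.6, 70.01 and 57.8 CPM at 6 h and at 36.7, 31.8, 43.8 and 46.2 CPM at 24 h, each library at 6 h above each at 24 h, which was 1.78-fold lower (log2 fold change -0.83 ± 0.19, edgeR adjusted p = 0.0360, exact permutation p = 0.0286). *Nfkb2* was lower by a similar amount after 0.1 Gy (-0.75 ± 0.14, edgeR adjusted p = 0.0158) and 2 Gy (-0.79 ± 0.20, edgeR adjusted p = 0.0464). In a fit corrected for the GC content and the length of transcripts (the GC and length correction), its value in mock-irradiated cells was -0.51 and not called without the replicate number as a block (edgeR adjusted p = 0.116), and -0.50 ± 0.16 and called with it (edgeR adjusted p = 0.0434). *Nfkb2* overlaps *Psd* on the other strand by 4 exon bases, and the strand setting of the counting is not given in the sources used here.

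*Relb*, the partner of p52, was at 41.7, 20.3, 30.2 and 31.9 CPM at 6 h and at 13.4, 6.62, 18.04 and 17.8 CPM at 24 h in mock-irradiated cells, and the groups did not overlap. Its log2 fold change of -1.17 ± 0.33 did not pass the test (edgeR adjusted p = 0.0641, exact permutation p = 0.0286). It passed without the libraries numbered 2 (log2 fold change -1.07, edgeR adjusted p = 0.0159). After 0.1 Gy and 2 Gy, the log2 fold change of *Relb* was -0.61 ± 0.27 and -0.56 ± 0.31, with overlapping groups.

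*Rela* was at 104, 86.9, 96.6 and 98.4 CPM at 6 h and at 76.95, 69.3, 123 and 88.4 CPM at 24 h in mock-irradiated cells, so that library 3 was higher and the others lower at 24 h. The log2 fold change was -0.13 ± 0.18 there, 0.086 ± 0.12 after 0.1 Gy and 0.092 ± 0.17 after 2 Gy (edgeR adjusted p = 0.706, 0.717 and 0.796). *Nfkb1* in mock-irradiated cells was at 97.9, 56.2, 89.8 and 75.8 CPM at 6 h and at 69.6, 53.7, 76.99 and 85.1 CPM at 24 h, with a log2 fold change of -0.18 ± 0.20 (edgeR adjusted p = 0.631). Its values were -0.15 ± 0.19 and -0.19 ± 0.20 at the other doses. With the GC and length correction the value of *Nfkb1* in mock-irradiated cells was -0.39 and not called without the block (edgeR adjusted p = 0.422), and -0.42 ± 0.14 and called with it (edgeR adjusted p = 0.0457), where the numbers do not clearly pair the libraries. *Rela* was at 0.17 and 0.18 in these fits, not called.

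Of the IκB genes, *Nfkbia* encodes IκBα, the inhibitor that is degraded and made again in each round of the signal. In mock-irradiated cells it was at 131, 62.7, 102 and 118 CPM at 6 h and at 40.8, 24.5, 54.7 and 57.4 CPM at 24 h, without overlap, and was 2.36-fold lower at 24 h (log2 fold change -1.24 ± 0.30, edgeR adjusted p = 0.0418, exact permutation p = 0.0286). It fell after 0.1 Gy as well (-0.999 ± 0.26, edgeR adjusted p = 0.0437). After 2 Gy the log2 fold change was -0.90 ± 0.33 and did not pass (edgeR adjusted p = 0.135), with library 3 at 24 h, at 85.6 CPM, inside the range of the 6 h libraries. After the GC and length correction alone, the value at 2 Gy was -1.01 and passed (edgeR adjusted p = 0.0238).

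*Nfkbiz* encodes IκBζ, a nuclear protein of the family that acts together with p50 on a subset of targets. It was at 51.4, 27.9, 77.02 and 37.3 CPM at 6 h and at 22.5, 11.8, 21.9 and 20.1 CPM at 24 h after 0.1 Gy, without overlap (-1.36 ± 0.32, edgeR adjusted p = 0.0305). After 2 Gy it was at 47.3, 28.5, 59.97 and 48.7 CPM and at 20.8, 11.1, 21.3 and 20.5 CPM, also without overlap (-1.34 ± 0.27, edgeR adjusted p = 0.0258). In mock-irradiated cells the groups overlapped by a small margin, at 49.6, 23.6, 65.7 and 30.1 CPM and 24.9, 12.6, 24.3 and 23.3 CPM (-1.01 ± 0.34, edgeR adjusted p = 0.106). *Nfkbie* (IκBε) was the weakest of the 3, with -0.75 ± 0.34, -0.38 ± 0.31 and -0.39 ± 0.30 at the rising doses and edgeR adjusted p of 0.208, 0.481 and 0.488.

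The 2 regulators of the signal had lower values at 24 h as well. *Tnfaip3* was at 28.8, 18.4, 20.1 and 22.7 CPM at 6 h and at 11.9, 9.95, 6.60 and 12.1 CPM at 24 h after 2 Gy and was 2.24-fold lower (edgeR adjusted p = 0.0261). It was 2.09-fold lower after 0.1 Gy (edgeR adjusted p = 0.0270). In mock-irradiated cells, at 27.8, 18.2, 22.4 and 16.2 CPM and 13.03, 11.7, 8.23 and 14.1 CPM, its groups did not overlap either (exact permutation p = 0.0286), but the log2 fold change of -0.86 ± 0.23 did not pass (edgeR adjusted p = 0.0589). Corrected for GC content and length alone, it was -0.99 and passed (edgeR adjusted p = 0.0142). *Birc3*, which encodes the ubiquitin ligase cIAP2, had log2 fold changes of -0.71 ± 0.35, -0.88 ± 0.33 and -1.06 ± 0.33 at 0, 0.1 and 2 Gy, with edgeR adjusted p of 0.242, 0.127 and 0.0904.

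Counted by overlap alone, 4 of the 10 genes had all 24 h libraries below all 6 h libraries at each dose, where 7.44%, 9.38% and 9.36% of all genes did so at 0, 0.1 and 2 Gy. These were *Nfkb2*, *Relb*, *Nfkbia* and *Tnfaip3* in mock-irradiated cells, and *Nfkb2*, *Nfkbiz*, *Tnfaip3* and *Ptgs2* after 0.1 Gy and after 2 Gy. With the replicate number as a block, which pairs the libraries by number, *Relb* (edgeR adjusted p = 0.0273) and *Birc3* (edgeR adjusted p = 0.00754) were also called at 0.1 Gy, with 14.0% of all genes called lower. At 2 Gy, *Nfkbia* (edgeR adjusted p = 0.0136) and *Birc3* (edgeR adjusted p = 0.0109) were added, with 10.4% called lower. In the blocked fit without the libraries numbered 2, the edgeR adjusted p was 0.0979 for *Relb* at 0.1 Gy and 0.0552 for *Nfkbia* at 2 Gy, so that both calls were lost, with log2 fold changes of -0.59 and -0.91 against -0.61 and -0.94 with all libraries. *Nfkb2* at 2 Gy lost its call too (edgeR adjusted p = 0.0524, log2 fold change -0.80 against -0.76). In that fit the edgeR adjusted p was 0.0128 and 0.0139 for *Birc3* at 0.1 and 2 Gy, which stayed called. Without the libraries numbered 2 the unpaired fit called 5, 6 and 4 members at 0, 0.1 and 2 Gy, with 3.72%, 7.36% and 3.71% of all genes called lower. It added *Relb* and *Nfkbiz* at 0 Gy and *Birc3* at 0.1 and 2 Gy, and it lost *Nfkb2* at 2 Gy (edgeR adjusted p = 0.0535). With 1 library left out at a time, *Nfkb2* was called in 3, 5 and 1 of 8 fits at 0, 0.1 and 2 Gy, *Nfkbia* in 2 and 1 of 8 at 0 and 0.1 Gy, *Nfkbiz* in 3 of 8 at 0.1 and at 2 Gy and *Tnfaip3* in 4 and 3 of 8 at 0.1 and 2 Gy, with edgeR adjusted p of at most 0.143. Time after the mock treatment and time in culture cannot be told apart in these samples. The summed microglial markers had medians of 2878 CPM at 6 h and 2271 CPM at 24 h in mock-irradiated cells, and 0 of the 14 markers were called in that comparison. In the same cells the median sum went from 497 to 589 CPM for neuronal and from 565 to 601 CPM for oligodendrocyte lineage markers. It went from 3041 to 3180 CPM for astrocyte markers and from 5435 to 4971 CPM for those of endothelial cells, pericytes and fibroblasts. The correlation of the log2 fold change with GC content across genes was -0.316 there. With the block and the GC and length correction, 8, 7 and 8 members were called lower at 0, 0.1 and 2 Gy, where 12.7%, 17.2% and 14.0% of all genes were. In that fit at 0 Gy *Ptgs2* was at -2.74 ± 0.28 and *Nfkbia* at -1.08 ± 0.13. At 0 Gy, however, the numbers do not clearly pair the libraries between the times. The correction alone called only *Ptgs2*, *Nfkbia* and *Tnfaip3* of the members at 0 Gy (edgeR adjusted p = 0.0133, 0.0221 and 0.0142). The part of any of these sets of markers in the result was not tested.

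The members called lower in mock-irradiated cells were *Nfkb2*, *Nfkbia* and *Ptgs2*, and their promoters are shown because NF-κB acts through κB sites of this kind. The 250 bases before the transcription start are given 5′ to 3′ on the strand of the gene, from RefSeq (GRCm38.p6), at chr19:46304487-46304736 (plus strand), chr12:55492648-55492897 (minus strand) and chr1:150099781-150100030 (plus strand). Capitals mark matches, on either strand, to the κB consensus, the form of the pattern GGGNNNNNCC with a purine as the fourth base and pyrimidines as the seventh and eighth. Stretches that match the wider pattern alone are left in lower case.
Nfkb2: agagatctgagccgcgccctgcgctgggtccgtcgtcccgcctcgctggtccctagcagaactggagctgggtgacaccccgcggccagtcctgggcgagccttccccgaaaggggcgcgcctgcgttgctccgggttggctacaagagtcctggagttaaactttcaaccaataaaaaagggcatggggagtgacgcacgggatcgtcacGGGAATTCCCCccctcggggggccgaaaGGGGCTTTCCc
Nfkbia: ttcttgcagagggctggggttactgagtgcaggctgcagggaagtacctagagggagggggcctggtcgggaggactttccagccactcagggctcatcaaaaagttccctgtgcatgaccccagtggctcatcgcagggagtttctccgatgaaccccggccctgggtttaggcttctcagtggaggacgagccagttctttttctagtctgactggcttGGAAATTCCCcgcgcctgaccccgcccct
Ptgs2: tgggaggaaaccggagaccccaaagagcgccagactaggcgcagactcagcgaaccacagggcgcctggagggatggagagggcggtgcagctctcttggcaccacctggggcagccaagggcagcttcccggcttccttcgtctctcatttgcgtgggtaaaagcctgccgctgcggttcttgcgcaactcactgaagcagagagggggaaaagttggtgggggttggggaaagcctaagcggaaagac

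The *Nfkb2* window shown held 3 matches to the κB consensus, of which 2 lie over each other between positions -39 and -29 from the start and the other lies at -11 to -2. The *Nfkbia* window held 1, at -29 to -20, and the *Ptgs2* window held 0. *Nfkb2* had 2 further windows, at chr19:46305445-46305694 and chr19:46305680-46305929, with 1 match each. Among 32851 promoter windows of this length 7.25% held at least 1 such match. The wider pattern GGGNNNNNCC, which also covers sites that meet the consensus, was in 45.8% of the windows and in all 3 shown here. Windows were found for 7 of the 10 members. *Nfkbie* held 1 match and 1 of the 2 windows of *Tnfaip3* held 2, while the windows of *Rela* and *Birc3* held 0. *Nfkb1*, *Relb* and *Nfkbiz* had no entry in the table used. A match is a description of the letters and not a site shown to be bound, and no match says only that the letters are not in these 250 bases.

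Other genes of the pathway were counted from 6 lists with 95 genes. Of 30 further NF-κB targets 28 were tested between the times in mock-irradiated cells, and 8 fell and 0 rose, with a median log2 fold change of -0.94, where 3.46% of all genes were called lower and 3.24% higher. At 0.1 Gy 8 of 28 fell, against 5.33% of all genes, and at 2 Gy 7 of 28, against 3.92%. With the block, 16 of 28 fell and 1 rose at 0.1 Gy and 16 of 28 fell at 2 Gy, where 14.0% and 10.4% of all genes were called lower. The block called 1914 of 16250 genes higher at 0.1 Gy. The 8 in mock-irradiated cells, named after their values were seen, were the cytokines and chemokines *Il6*, *Ccl2*, *Ccl7*, *Cxcl1*, *Cxcl10* and *Lif* and the early response genes *Gadd45b* and *Ier3*. *Il6* went from 14.3 ± 10.6 to 0.835 ± 0.329 CPM (SD, n = 4; log2 fold change -4.09 ± 0.62, edgeR adjusted p = 0.00907). *Ccl2* went from 59.4 ± 27.8 to 9.43 ± 5.16 CPM (edgeR adjusted p = 0.0138) and *Ier3* from 136 ± 43.3 to 32.4 ± 15.7 CPM (edgeR adjusted p = 0.0124).

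Of the 30 kinases, adaptors and ubiquitin enzymes, of the 5 genes of the DNA damage branch and of the 4 other subunits and IκB proteins, 0 were called in mock-irradiated cells (edgeR), and their medians of the log2 fold change were 0.081, -0.036 and -0.48. In that comparison 3.46% of all genes were called lower and 3.24% higher. Of 10 receptors, *Cd40* fell (log2 fold change -1.33 ± 0.27, edgeR adjusted p = 0.0255) and *Tlr3*, a sensor of double-stranded RNA, rose (0.94 ± 0.24, edgeR adjusted p = 0.0464). Of 16 prostaglandin genes, 1 fell. This was *Ptges*, the inducible prostaglandin E synthase that uses the product of cyclooxygenase-2, which went from 10.9 ± 3.71 to 3.93 ± 1.54 CPM (edgeR adjusted p = 0.0366). *Cd40* was also named after its value was seen. With the block, which called 14.0% and 10.4% of all genes lower at 0.1 and 2 Gy, 5 of 10 receptors were called lower and 1 higher at each dose (unpaired 2 and 0 lower). The block called 1914 of 16250 genes higher at 0.1 Gy and 1412 of 16002 at 2 Gy. Of the 16 prostaglandin genes it called 4 and 5 lower and 1 higher at each dose (unpaired 1 and 0 lower). Over the 6 lists it called 28 of 93 genes lower and 6 higher at 0.1 Gy and 27 lower and 3 higher at 2 Gy. The unpaired fit, which called 5.33% and 3.92% of all genes lower, called 11 and 7 lower and 0 higher. Of all genes it called 743 of 16250 and 484 of 16002 higher.

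X-rays at either dose gave no difference that passed the unpaired test. In the comparisons of 0.1 Gy or 2 Gy with mock-irradiated cells at 6 h and at 24 h, and of 2 Gy with 0.1 Gy, 0 of the 10 members were called, and 0% of all genes were (edgeR's quasi-likelihood test). At an unadjusted p under 0.05, 0 of the 10 members were found in each of these fits, against 215 of all genes at 6 h and 570 at 24 h for 2 Gy and 24 and 241 for 0.1 Gy. DESeq2 called 0 members in all of them, with 1 gene called at 6 h and 93 at 24 h for 2 Gy. The difference of the response to 2 Gy between the times gave 0 members as well. The adjusted p of the members in edgeR lay between 0.940 and 1.00 in the comparisons of doses and between 0.819 and 0.999 in the test of the difference between the times.

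At 6 h the log2 fold change of the members ranged from -0.098 to 0.17 after 2 Gy and from -0.13 to 0.19 after 0.1 Gy. *Nfkbia* was at 132, 62.02, 108 and 91.9 CPM after 2 Gy, and the groups overlapped (-0.069 ± 0.27, edgeR adjusted p = 1.000). *Ptgs2* had the widest spread of the pairs, since library 3 was lower after 2 Gy than its mock partner by a log2 difference of -0.67 and library 4 higher by 1.06. Its log2 fold change was -0.00527 ± 0.55 (exact permutation p = 0.8286).

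At 24 h, *Relb* and *Ptgs2* had the largest differences, in opposite directions. *Relb* was at 13.4, 6.62, 18.04 and 17.8 CPM in mock-irradiated cells, at 16.7, 11.98, 22.02 and 24.8 CPM after 0.1 Gy and at 17.7, 12.98, 25.97 and 22.6 CPM after 2 Gy. Each irradiated library was above the mock library of its number, by log2 differences of 0.31, 0.85, 0.29 and 0.47 after 0.1 Gy and 0.40, 0.96, 0.52 and 0.34 after 2 Gy, while the groups overlapped. The share of all genes with 1 direction in 4 of 4 pairs is not given, here or for the members below. The unpaired log2 fold change was 0.51 ± 0.33 after 2 Gy (edgeR adjusted p = 0.940, exact permutation p = 0.286) and 0.42 ± 0.34 after 0.1 Gy (edgeR adjusted p = 0.943, exact permutation p = 0.314). Both doses were compared with the same 4 mock-irradiated libraries, and library 2 among these, at 6.62 CPM, was the lowest of the 24. The summed microglial markers at 24 h were higher in 4 of 4 pairs after each dose too, at 2033, 296, 2522 and 2508 CPM in mock-irradiated cells, 2458, 357, 2549 and 2931 CPM after 0.1 Gy and 2385, 319.9, 3035 and 2569.97 CPM after 2 Gy. In the unpaired fits 12 of these 14 markers had a log2 fold change above 0 after each dose, with medians of 0.14 after 0.1 Gy and 0.13 after 2 Gy, and 0 were called. The block called 2 higher after 0.1 Gy and 2 higher and 1 lower after 2 Gy. The summed markers of the oligodendrocyte lineage were higher in 4 of 4 pairs after each dose, at 578, 624, 639 and 453 CPM in mock-irradiated cells, 671, 898, 768 and 575 CPM after 0.1 Gy and 692, 897, 789 and 489 CPM after 2 Gy. The neuronal sum was lower in every pair after 0.1 Gy, at 615, 796, 521 and 562 CPM in mock-irradiated cells and 558, 689, 519 and 514 CPM after it. Its medians at 0, 0.1 and 2 Gy were 589, 538 and 580 CPM. Those of the astrocyte markers were 3180, 3347 and 3381 CPM. For endothelial cells, pericytes and fibroblasts they were 4971, 4981 and 4291 CPM. The part of any set of markers in the differences was not tested.

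*Ptgs2* at 24 h was at 35.99, 40.8, 12.8 and 15.8 CPM in mock-irradiated cells, at 29.7, 23.8, 8.18 and 12.03 CPM after 0.1 Gy and at 27.5, 25.7, 4.24 and 13.03 CPM after 2 Gy. It was below the mock library of the same number in 4 of 4 pairs at both doses, by log2 differences of -0.39, -0.67, -1.57 and -0.27 after 2 Gy. The unpaired log2 fold change was -0.57 ± 0.58 after 2 Gy (edgeR adjusted p = 0.940, exact permutation p = 0.429) and -0.52 ± 0.49 after 0.1 Gy (edgeR adjusted p = 0.943). Library 3 after 2 Gy, at 4.24 CPM, was the lowest of the 24. With 1 library left out at a time, the value after 2 Gy lay between -0.88 and -0.24 for *Ptgs2* and between 0.27 and 0.66 for *Relb*, and after 0.1 Gy between -0.85 and -0.24 and between 0.18 and 0.58. The value nearest 0 came without library 3 after 2 Gy for *Ptgs2* at 2 Gy, and without the mock library 2 for the others.

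Libraries with the same number deviated together within a time, so a second fit took the replicate number as a block. It called 2 of the 10 members 24 h after 2 Gy, where it called 13.2% of all genes, and the same 2 after 0.1 Gy, where it called 6.84%. *Relb* was higher (log2 fold change 0.55 ± 0.12 after 2 Gy and 0.46 ± 0.12 after 0.1 Gy, edgeR adjusted p = 0.0270 and 0.0406) and *Ptgs2* lower (-0.68 ± 0.19 and -0.53 ± 0.11, edgeR adjusted p = 0.0445 and 0.0262). With a further correction for GC content and gene length neither was called, at edgeR adjusted p of 0.107 and 0.130 for *Relb* and 0.258 and 0.122 for *Ptgs2*. The corrected values after 2 and 0.1 Gy were 0.34 and 0.27 for *Relb* and -0.39 and -0.29 for *Ptgs2*. Without the libraries numbered 2, the blocked log2 fold change after 2 Gy was 0.42 for *Relb* (edgeR adjusted p = 0.144) and -0.70 for *Ptgs2* (edgeR adjusted p = 0.184), and after 0.1 Gy it was 0.33 (edgeR adjusted p = 0.221) and -0.45 (edgeR adjusted p = 0.114). Without the libraries numbered 1, 3 or 4, the edgeR adjusted p after 2 Gy was 0.0925, 0.00214 and 0.0766 for *Relb* and 0.0928, 0.00187 and 0.0882 for *Ptgs2*. The log2 fold changes in these fits were 0.60, 0.55 and 0.64 for *Relb* and -0.80, -0.45 and -0.82 for *Ptgs2*, so that the calls without the libraries numbered 1 or 4 were lost at larger values and *Ptgs2* was smaller without those numbered 3. After 0.1 Gy the adjusted p was 0.0348, 0.0112 and 0.210 for *Relb* and 0.0148, 0.00951 and 0.187 for *Ptgs2* in edgeR. The log2 fold changes there were 0.52, 0.53 and 0.47 for *Relb* and -0.61, -0.49 and -0.56 for *Ptgs2*. The fits without the libraries numbered 3 called 33.1% of all genes after 2 Gy and 23.2% after 0.1 Gy, those without the libraries numbered 1 called 0.892% and 7.18%, those without the libraries numbered 2 called 0.432% and 0.130% and those without the libraries numbered 4 called 1.54% and 0.0987%, so that a call in them is read against those shares.

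At 6 h the block called 0 members and 0% of all genes for either dose against mock-irradiated cells. For 2 Gy against 0.1 Gy it called 0 members at both times, with 0.0553% of all genes called at 6 h. With the GC and length correction added it called 0 members at both times too, with 0.633% of all genes at 6 h and 0.65% at 24 h. In the test of whether the response to 2 Gy differed between 24 h and 6 h, the block called *Relb* (difference of the log2 fold changes 0.68 ± 0.17, edgeR adjusted p = 0.0405), with 6.78% of all genes called. The corresponding unpaired value was 0.61 ± 0.48 (edgeR adjusted p = 0.819), and the blocked value without the libraries numbered 2 was 0.56 (edgeR adjusted p = 0.286). With the block and the GC and length correction it was 0.39 ± 0.12 and not called (edgeR adjusted p = 0.0919), with 2.38% of all genes called. *Ptgs2* had the largest blocked value of the other members, -0.82 ± 0.33 (edgeR adjusted p = 0.111).

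**Figure D3:**
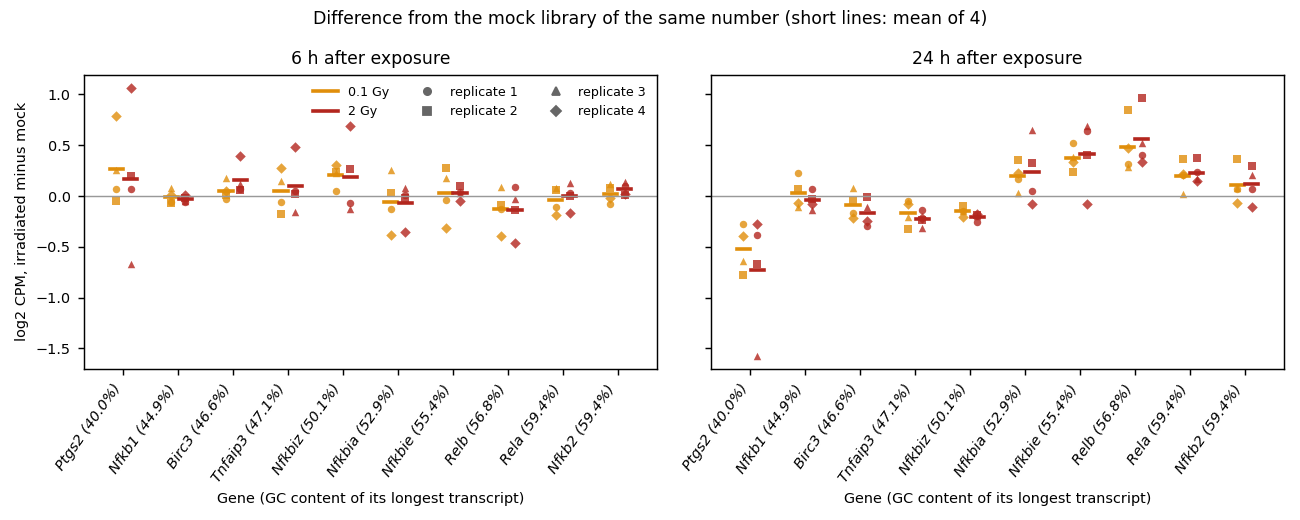
Log2 CPM of each irradiated library minus that of the mock-irradiated library with the same number, at 6 h (left) and 24 h (right), for 0.1 Gy and 2 Gy. Symbols stand for the replicate number and short lines for the mean of 4, and genes are ordered by the GC content of their longest transcript. At 24 h the 5 genes with the highest GC content have means above 0 at both doses, and *Ptgs2*, *Birc3*, *Tnfaip3* and *Nfkbiz* have means below 0.

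The members were also set against the GC content of their transcripts. At 24 h after 2 Gy, the 5 members with the higher GC content (*Nfkbia* with 52.9%, *Nfkbie* with 55.4%, *Relb* with 56.8%, *Rela* with 59.4% and *Nfkb2* with 59.4%) had log2 fold changes of 0.11 to 0.51. The 5 members with the lower GC content, from *Ptgs2* with 40.0% to *Nfkbiz* with 50.1%, had values of -0.57 to -0.039. After 0.1 Gy the split was not complete, since *Nfkb1*, with 44.9%, was at 0.013. Across 15855 genes, which are not independent replicates, the correlation of the log2 fold change with GC content was 0.559 after 2 Gy and 0.587 after 0.1 Gy (16145 genes) at 24 h, and -0.373 and -0.341 at 6 h. In the blocked fit with the correction, *Nfkb2* and *Rela* were at -0.17 and -0.078 and *Nfkb1* was at 0.23, on the other side of 0 than without it, while *Relb* (0.34) and *Ptgs2* (-0.39) kept their side. The part of GC content in the differences was not tested beyond this correction.

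Other members at 24 h had smaller differences. *Rela* was at 90.5, 89.95, 138 and 97.7 CPM after 2 Gy, above the mock library of the same number in 4 of 4 pairs (log2 fold change 0.22 ± 0.21, edgeR adjusted p = 0.940). *Nfkbie* was higher in 3 of 4 pairs after 2 Gy (0.39 ± 0.31) and in 4 of 4 after 0.1 Gy (0.36 ± 0.35). *Nfkbia* was higher in 3 of 4 and 4 of 4 pairs (0.26 ± 0.34 and 0.16 ± 0.30), with library 3 at 85.6 CPM the highest of its group. *Nfkbiz* and *Tnfaip3* were lower in 4 of 4 pairs at both doses, with -0.20 ± 0.28 and -0.21 ± 0.26 after 2 Gy. *Birc3* was lower in 4 of 4 pairs after 2 Gy (-0.19 ± 0.29), and *Nfkb1* and *Nfkb2* were at -0.039 ± 0.19 and 0.11 ± 0.17. In none of these did the unpaired or the blocked fit of all 4 pairs reach an adjusted p of 0.05 in edgeR. Both doses were compared with the same mock libraries, so they are not separate evidence of a direction. The share of all genes with 1 direction in 4 of 4 pairs is not given here. The blocked edgeR fit had an unadjusted p under 0.05 for 32.3% of all genes after 2 Gy and 28.1% after 0.1 Gy. *Rela* was called after 2 Gy in the blocked fit without the libraries numbered 3 (0.26, edgeR adjusted p = 0.00874), which called 33.1% of all genes.

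In the 6 pathway lists, 0 genes of 92 to 94 tested were called in the unpaired fits of a dose with mock-irradiated cells. The block called 0 at 6 h, 13 of 92 after 2 Gy at 24 h and 8 of 93 after 0.1 Gy at 24 h, where 13.2% and 6.84% of all genes were called, so that the shares were near those of all genes. Among the called genes, the receptors *Il1r1*, *Il1rap*, *Tlr3* and *Tlr4* were lower after both doses, with blocked log2 fold changes after 2 Gy of -0.61 ± 0.14, -0.38 ± 0.097, -0.41 ± 0.093 and -0.46 ± 0.11 (edgeR adjusted p = 0.0266, 0.0359, 0.0268 and 0.0321). With the GC and length correction none of the 4 was called after either dose, and the values after 2 Gy were -0.39, -0.039, -0.11 and -0.14 (edgeR adjusted p = 0.115, 0.793, 0.376 and 0.461). Of the signalling genes after 2 Gy, *Tab2* (-0.46 ± 0.096) and *Tab3* (-0.56 ± 0.11), partners of the kinase TAK1, were lower and *Tnip2* (0.41 ± 0.11) was higher, and *Tradd* was higher after 0.1 Gy (0.44 ± 0.12).

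In the DNA damage branch, *Atm*, the kinase that responds to double strand breaks, was lower after 2 Gy (-0.61 ± 0.14, edgeR adjusted p = 0.0266) and *Pidd1*, a p53 target that carries the signal to NEMO, was higher (0.52 ± 0.10, edgeR adjusted p = 0.0187). With the GC and length correction neither was called, at -0.30 ± 0.11 and 0.32 ± 0.081 (edgeR adjusted p = 0.153 and 0.0655). At 6 h *Pidd1* had 0.74 ± 0.13 in the blocked fit and did not pass (edgeR adjusted p = 0.170), while the corrected fit called it, at 0.81 ± 0.11 (edgeR adjusted p = 0.0112). Of the targets, *Saa3* (0.68 ± 0.17 after 2 Gy and 0.58 ± 0.13 after 0.1 Gy) and *Ccl5* (0.54 ± 0.15 after 2 Gy) were higher and *Xiap* (-0.41 ± 0.10 after 0.1 Gy) was lower. Of the prostaglandin genes, the blocked fit called the synthases *Ptges* (0.63 ± 0.17) and *Ptges2* (0.47 ± 0.11) higher after 2 Gy, and *Ptges2* after 0.1 Gy (0.43 ± 0.12). Neither synthase was called with the GC and length correction. With the GC and length correction 2 of 92 list genes were called 24 h after 2 Gy, *Tab2* (-0.37 ± 0.077) and *Sod2* (0.33 ± 0.068), and 1 of 93 after 0.1 Gy, *Saa3* (0.55 ± 0.12), where that fit called 3.51% and 1.89% of all genes. At 6 h the corrected fit called 2 of 94 after 2 Gy, *Pidd1* and *Icam1* (0.34 ± 0.055), and 0 of 93 after 0.1 Gy, where it called 0.719% and 0% of all genes. *Sod2* and *Icam1* were named after their values were seen.

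The largest and smallest unpaired log2 fold changes of each list 24 h after 2 Gy belonged to *Saa3* (0.67 ± 1.13) and *Il6* (-0.76 ± 0.48) of the targets, *Bcl3* (0.54 ± 0.54) and *Rel* (-0.25 ± 0.31) of the other subunits and IκB proteins, *Tradd* (0.43 ± 0.37) and *Tab3* (-0.56 ± 0.38) of the signalling genes, *Tnfrsf1a* (0.30 ± 0.22) and *Il1r1* (-0.55 ± 0.56) of the receptors, *Pidd1* (0.52 ± 0.18) and *Atm* (-0.53 ± 0.53) of the DNA damage branch, and *Ptgis* (0.61 ± 0.92) and *Ptger4* (-0.33 ± 0.58) of the prostaglandin genes. None of these passed the unpaired test in edgeR. *Il6* and *Ptgis* had low levels, at a mean of 0.835 and 0.929 CPM in mock-irradiated cells.

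Differences between the replicate numbers were larger than those between doses for all 10 members at both times. At 6 h, the ratio of the highest to the lowest mean over the 3 doses was 1.01 to 1.15 among the members, and the ratio of the highest to the lowest mean over the 4 numbers was 1.16 (*Rela*) to 4.54 (*Ptgs2*). At 24 h these ratios were 1.05 to 1.49 and 1.25 to 3.70. The libraries numbered 2 were the lowest of their group in 6 of 6 groups for *Nfkb1*, *Relb*, *Nfkbia*, *Nfkbie*, *Nfkbiz* and *Birc3*, whereas 13.6% of 14331 genes with a mean of at least 1 CPM had that pattern. Relative to the mean of the other numbers, the median over the groups was 0.480 for *Birc3*, 0.526 for *Nfkbiz*, 0.531 for *Nfkbie*, 0.547 for *Nfkbia*, 0.579 for *Relb* and 0.671 for *Nfkb1*. *Ptgs2*, at 1.27, was the lowest in 0 of 6 groups.

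The same ratio was 0.121 for the summed microglial markers, with 0.105 to 0.135 over the groups. It was 0.821 for the astrocyte markers, 1.41 for the neuronal markers, 1.46 for markers of the oligodendrocyte lineage and 0.851 for those of endothelial cells, pericytes and fibroblasts. The part of microglial RNA in the levels of the members was not tested.

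**Figure D4:**
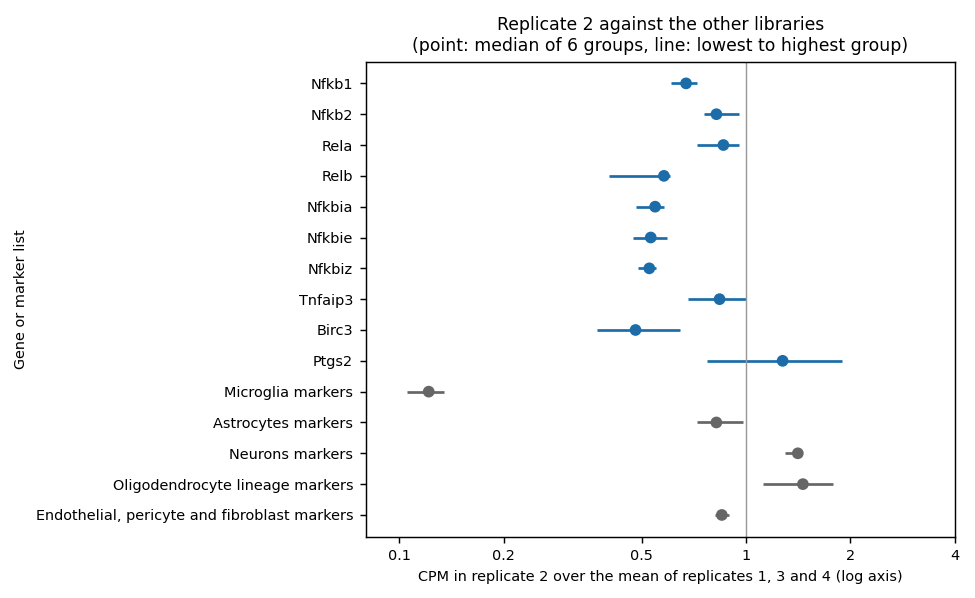
CPM in the library numbered 2 divided by the mean of the libraries numbered 1, 3 and 4 of the same group (log axis), for the 10 genes and for summed marker lists. Points are the median of the 6 groups and lines run from the lowest to the highest group. Microglial markers lie near 0.12, the members from *Birc3* to *Nfkb1* between these and 1, and *Ptgs2* spans 1.

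Pearson correlations of log2 CPM over the 24 libraries were computed as a description of likeness, with libraries that share doses, times and numbers. The 45 pairs of members had a median r of 0.73, from -0.29 to 0.95, with 43 above 0. After each group mean was subtracted, the median was 0.63, with 39 of 45 above 0 and *Relb* with *Nfkbia* the closest pair at 0.96. Among 14331 genes, the 3 most like *Nfkbia* were *Gch1* (0.98), *Lpcat3* (0.96) and *Cdk9* (0.96), and those most like *Relb* were *Efhd2* (0.96), *Nfkbia* (0.95) and *Tnip2* (0.95). *Nfkb2* was most like *Ccl2* (0.95), *Fosl2* (0.94) and *Igsf9* (0.93), and *Ptgs2* most like *Pde10a* (0.97), *Atp10a* (0.97) and *Cldn1* (0.97). *Nfkbie* was most like *Oasl1* (0.96), *Rsad2* (0.94) and *Mx1* (0.92), and *Birc3* most like *Cd274* (0.97), *Tlr2* (0.95) and *D330045A20Rik* (0.93). *Nfkb1* was most like *Pik3r5* (0.96), *Icosl* (0.95) and *Kctd12* (0.95), and *Rela* most like *Trip6* (0.93), *Brms1* (0.92) and *Spsb2* (0.92). For *Nfkbiz* these were *Arf6*, *Ahrr* and *Fam167a* (each 0.95) and for *Tnfaip3* *Acsl4* (0.97), *Fbxl21* (0.96) and *Prune2* (0.95).

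With the group means subtracted, the genes most like a member over the 24 libraries were computed as well, and they are given for some of the members. *Nfkb1* was then most like *Ikbke* (0.97) and *Acod1* (0.96), and *Birc3* most like *Rassf4* (0.98) and *Cd274* (0.98). *Nfkbia* was most like *Sh3bp1* (0.97) and *Evl* (0.96), and *Nfkb2* most like *Dusp7* (0.84) and *Cebpb* (0.83), lower values than for the other members. *Rela* was most like *Gas8* (0.98) and *Ddx39b* (0.96), *Nfkbiz* most like *Gcnt2* (0.97) and *Irak3* (0.94), and *Tnfaip3* most like *Ncoa7* (0.90) and *Acsl4* (0.90).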

How the data were processed

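RNA of primary cortical astrocytes was sequenced as 24 poly(A) libraries in paired reads on 1 instrument run. The authors' sequencing provider trimmed, mapped and counted the reads, and the deposited values are raw counts per gene, 1 file per library, with mm10 named in the submitters' notes. The aligner, the counter and the strand setting are not given in the sources used here. Counts of 49315 genes were read, and 0 rows had no gene name. The totals were 14742855 to 38194800 counts per library.

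Groups were taken from the labels. Each comparison was fitted with edgeR 4.0.16 (R 4.3.3), TMM normalization, filterByExpr and the quasi-likelihood test, on the libraries compared, with Benjamini-Hochberg adjustment over all genes and a threshold of 0.05. CPM were scaled by TMM over the 24 libraries, and a prior count of 2 was used for log2 CPM. Exact permutation tests of 4 against 4 values were two-sided. The paper describes the 4 libraries of a group as biological repeats, and the labels give each a number. No pair of the 36 replicate pairs agreed within sampling noise (lowest chi-square per degree of freedom 28.33).

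Same-numbered libraries deviated together within a time (correlations of 0.582 to 0.953 for each pair in the dose comparisons), at 0.1 Gy between the times (0.417 to 0.879) and at 2 Gy (0.271 to 0.859). At 0 Gy between the times this was less clear. Replicates 1, 2 and 4 had 0.465, 0.853 and 0.559 there, and replicate 3 had 0.0626. Replicates 3 and 4 did not correlate best with their own number. The pairing is read from these correlations and the numbers in the labels.

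The members and lists were chosen with earlier results of these data known. Of the pathway lists, genes are named for dose where the unpaired or blocked fit called them or where they had the highest or lowest log2 fold change of their list 24 h after 2 Gy. Alternatives were the replicate block, DESeq2 1.42.0, other size factors, other filters on low counts, a GC and length correction, 1 fit of all libraries, a minimum fold change and leaving out each library. Fits without replicate 2 were added after seeing the data. The edgeR fits were tested on simulated data for 2 Gy against 0 Gy at 24 h, where the unpaired fit recovered fewer of the changed genes than the blocked fit, which made more false calls. The simulated counts were built with differences between replicate numbers, so the better recovery by the block was set beforehand. Their changes were larger than those of the members between doses. No relation of dose to GC content was built in, so the false calls of the block in the real data were not measured. A count of 0 in the unpaired dose comparisons therefore does not show that no gene changed.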

Additional observations from a re-analysis of the deposited data

Results flagged for a closer look

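*Rela* 24 h after 2 Gy had 1 library, number 3, at 137.7 CPM, far above the other 3 of its group. *Nfkbiz* had the library numbered 2 far below the others at 24 h, with 12.6 CPM in the mock-irradiated group and 11.1 CPM in the 2 Gy group. These are 3 of 60 groups examined by Dixon's criterion, and chance alone flags about 1 group in 20.

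*Relb* responded to 2 Gy differently at the 2 times in the blocked fit, by 0.68 on the log2 scale, and this difference did not pass in the unpaired fit, without the libraries numbered 2 or with the GC and length correction (0.39, edgeR adjusted p = 0.0919). *Nfkbiz* was higher after 0.1 Gy at 6 h in 4 of 4 pairs (mean log2 difference 0.21) and lower at 24 h in 4 of 4 pairs (-0.15), and this difference was not tested. *Birc3* was higher after 2 Gy at 6 h in 4 of 4 pairs (0.16) and lower at 24 h in 4 of 4 (-0.16), and the test of the difference between the times did not pass in edgeR with or without the block. The share of all genes with such a pattern is not given.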

How the results depend on the processing

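The unpaired fits called 0 genes in each comparison of doses and in the difference between the times, and 1064, 1609 and 1112 genes between the times at 0, 0.1 and 2 Gy. DESeq2 gave 1 gene for 2 Gy against 0 Gy at 6 h, 93 genes for 2 Gy against 0 Gy at 24 h, 39 genes for 2 Gy against 0.1 Gy at 24 h, 1969 genes and 5 members for 24 h against 6 h at 0 Gy, 2535 genes for 24 h against 6 h at 0.1 Gy, 2108 genes for 24 h against 6 h at 2 Gy and 7 genes for the difference between the times. The replicate block with the GC and length correction gave 115 genes for 2 Gy against 0 Gy at 6 h, 558 genes for 2 Gy against 0 Gy at 24 h, 306 genes for 0.1 Gy against 0 Gy at 24 h, 103 genes for 2 Gy against 0.1 Gy at 6 h, 104 genes for 2 Gy against 0.1 Gy at 24 h, 4220 genes and 8 members for 24 h against 6 h at 0 Gy, 5863 genes for 24 h against 6 h at 0.1 Gy, 4595 genes and 8 members for 24 h against 6 h at 2 Gy and 401 gene for the difference between the times. The replicate block without replicate 4 gave 129 genes for 2 Gy against 0 Gy at 6 h, 245 genes for 2 Gy against 0 Gy at 24 h, 13 genes for 0.1 Gy against 0 Gy at 6 h, 16 genes for 0.1 Gy against 0 Gy at 24 h, 45 genes for 2 Gy against 0.1 Gy at 6 h and 40 genes for 2 Gy against 0.1 Gy at 24 h. The replicate block gave 2100 genes and 2 members for 2 Gy against 0 Gy at 24 h, 1107 genes and 2 members for 0.1 Gy against 0 Gy at 24 h, 9 genes for 2 Gy against 0.1 Gy at 6 h, 2428 genes and 7 members for 24 h against 6 h at 0 Gy, 4181 gene for 24 h against 6 h at 0.1 Gy, 3072 genes for 24 h against 6 h at 2 Gy and 1143 genes and 1 member for the difference between the times. A fit to all 24 libraries gave 108 genes for 2 Gy against 0 Gy at 24 h, 15 genes for 2 Gy against 0.1 Gy at 24 h, 2488 genes and 5 members for 24 h against 6 h at 0 Gy and 2543 genes for 24 h against 6 h at 2 Gy. The replicate block without replicate 1 gave 143 genes for 2 Gy against 0 Gy at 24 h, 1176 genes and 2 members for 0.1 Gy against 0 Gy at 24 h and 1 gene for 2 Gy against 0.1 Gy at 6 h. The replicate block without replicate 2 gave 69 genes for 2 Gy against 0 Gy at 24 h, 21 gene for 0.1 Gy against 0 Gy at 24 h, 9 genes for 2 Gy against 0.1 Gy at 6 h, 3039 genes for 24 h against 6 h at 0.1 Gy and 1748 genes for 24 h against 6 h at 2 Gy. The replicate block without replicate 3 gave 5291 gene and 3 members for 2 Gy against 0 Gy at 24 h, 3728 genes and 2 members for 0.1 Gy against 0 Gy at 24 h, 1 gene for 2 Gy against 0.1 Gy at 6 h and 161 gene for 2 Gy against 0.1 Gy at 24 h. A minimum log2 fold change of 1 gave 564 genes for 24 h against 6 h at 0 Gy, 624 genes and 3 members for 24 h against 6 h at 0.1 Gy and 577 genes for 24 h against 6 h at 2 Gy. The fit without replicate 2 gave 5 members for 24 h against 6 h at 0 Gy and 6 members at 0.1 Gy. Between the times at 0.1 and 2 Gy, the unpaired fit gave 5 and 4 members and the replicate block 7 and 6. The block with the GC and length correction gave 7 and 8 there, and DESeq2 gave 5 at each dose. No filter on low counts gave 730 genes for 24 h against 6 h at 2 Gy. The GC and length correction gave 1815 genes for 24 h against 6 h at 2 Gy. Leaving out 1 library at a time gave 170 to 2999 genes for 24 h against 6 h at 0 Gy, 0 to 5 members for 24 h against 6 h at 0 Gy, 534 to 1890 genes for 24 h against 6 h at 0.1 Gy, 1 to 6 members for 24 h against 6 h at 0.1 Gy, 220 to 1855 genes for 24 h against 6 h at 2 Gy and 0 to 5 members for 24 h against 6 h at 2 Gy.

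The replicate block called 7 members between the times at 0 Gy, where the numbers do not clearly pair the samples, since only 2 of 4 libraries correlated best with their own number. No value called in the unpaired fit, or in the blocked fit of all pairs, changed sign under the alternatives run. *Rela* 24 h after 2 Gy, called in the blocked fit without replicate 3 alone (0.26), was at -0.078 with the block and the GC and length correction. Values that no fit called changed sign too, among them, with that correction and the block, those 24 h after 2 Gy for *Nfkb1* (0.23) and *Nfkb2* (-0.17) and between the times at 0 Gy for *Rela* (0.18). Of the values of single members between the times under these settings, 490 stayed on their side of the threshold, 67 lost the call, 39 gained it and 4 that were not called moved by more than their standard error in the unpaired fit. For every count given here that differs from the unpaired fit, the cause was not tested.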
